A study of Homo sapiens with 18 samples.

Results

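The genes described here encode 9 enzymes and carriers of thiol redox control and the pentose phosphate pathway that are known targets of the transcription factor NRF2: NQO1, GCLC, GCLM, TXN, TXNRD1, SRXN1, PRDX1, PGD and TALDO1. They were chosen by name and are 9 of the 20145 genes in the count table, and all 9 were among the 15422 genes that passed the filter on low counts. The cells were LNCaP, a line from a human prostate adenocarcinoma, kept in serum-containing medium and treated for 72 h before RNA sequencing. Each of 6 conditions had 3 libraries: DMSO vehicle, P-16 and ENZA at 10 µM each, BD98 at 2 µM, 2-77 at 1 µM and ACBI at 0.2 µM. ENZA is enzalutamide, a drug used against prostate cancer. The labels name no target for the other compounds, and the compound called P-16 in the sample titles was taken to be the one called PB16 in the protocol. The study's title concerns inhibitors selective for the BRD7 bromodomain, a module of a chromatin remodelling subunit. Whether the libraries of a group are from different cultures is not stated, and p-values measure only the spread between these libraries, which may be technical.

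NRF2, encoded by NFE2L2, is held in the cytoplasm and marked for degradation by KEAP1 and the CUL3 ubiquitin ligase, and is released when oxidants or electrophiles modify KEAP1. In the nucleus it pairs with a small MAF protein and binds antioxidant response elements, for which the repressor BACH1 competes. Its targets make glutathione, recycle thioredoxin and supply NADPH, the reducing agent that both systems consume. In prostate cancer cells these systems are known for buffering peroxides.

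The core of the antioxidant response element was searched as TGACNNNGC and TGATNNNGC, where N is any base, on both strands of the 250 bases before each RefSeq gene start (build GRCh38.p14). Promoter sequences were found for 8 of the 9 genes, all but PRDX1. Of these 8 genes, 3 held a match (GCLM, TXNRD1 and PGD), while 16.6% of all 35116 promoter windows of this length held one. TXNRD1 had 2 windows, so the count of genes and the share of windows are unlike measures. Bases further upstream were not searched. TGACNNNGC alone was in 10.9% of the windows and TGATNNNGC in 6.29%. The 3 windows below are shown because they hold the matches before the RefSeq starts of GCLM and PGD and the downstream start of TXNRD1. They run 5′ to 3′ along the gene, with the matches in capitals, which read as the reverse complement where the match is on the other strand.
GCLM, chr1:93909431-93909680, minus strand: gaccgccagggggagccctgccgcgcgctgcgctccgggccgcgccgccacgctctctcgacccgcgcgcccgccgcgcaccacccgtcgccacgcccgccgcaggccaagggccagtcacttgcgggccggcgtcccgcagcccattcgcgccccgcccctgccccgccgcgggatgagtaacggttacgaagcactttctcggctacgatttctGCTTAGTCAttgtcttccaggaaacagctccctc
TXNRD1, chr12:104286782-104287031, plus strand: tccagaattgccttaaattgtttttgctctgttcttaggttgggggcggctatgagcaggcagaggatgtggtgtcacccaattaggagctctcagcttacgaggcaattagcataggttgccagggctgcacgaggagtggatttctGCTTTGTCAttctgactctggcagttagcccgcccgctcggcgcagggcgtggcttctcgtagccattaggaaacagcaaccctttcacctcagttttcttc
PGD, chr1:10398814-10399063, plus strand: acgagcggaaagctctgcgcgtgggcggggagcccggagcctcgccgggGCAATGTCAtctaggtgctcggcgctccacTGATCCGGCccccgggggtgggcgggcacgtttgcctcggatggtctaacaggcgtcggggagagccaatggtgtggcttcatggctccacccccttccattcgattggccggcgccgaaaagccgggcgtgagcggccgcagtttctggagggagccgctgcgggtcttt
The GCLM match read TGACTAAGC on the strand opposite to the gene and lay 26 to 34 bases before the RefSeq start at 93909430. The deposited position of GCLM reaches further upstream, to 93909598, so by that position the match lies within the gene. The TXNRD1 match read TGACAAAGC, also on the opposite strand, 94 to 102 bases before the start at 104287032. The upstream start of TXNRD1 had a match of its own, TGACTTCGC, 91 to 99 bases before it. PGD had TGACATTGC on the opposite strand, 193 to 201 bases before the start, and TGATCCGGC on the strand of the gene, 163 to 171 bases before it. A match is a run of letters and was not measured as a bound site.

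Each library held 16835093 to 36975028 counts, and the 9 genes had 447 to 15149 counts in every library, so none was near the detection limit. Levels are in CPM, counts scaled to TMM-adjusted library size, and compare 1 gene across libraries as a share of the measured RNA. Neither the number of cells nor the amount of RNA per cell can be read from such values. ACBI replicate 3 stood apart, with 8.6% of its counts on ribosomal RNA genes against 0.639% to 2.09% in the other 17 libraries. All 6 luminal prostate markers checked, KLK3 among them, were above 1 CPM in every group. Their sum was 7740 to 7840 CPM in DMSO, 5670 to 5700 with P-16, 5300 to 5510 with BD98, 4450 to 4530 with ENZA, 3940 to 4040 with 2-77 and 3280 to 3430 with ACBI. The 1 basal marker measured, KRT14, was at 2.1 CPM or less, the 2 immune markers summed to 4.12 to 7.13 CPM, and PTPRC had 0 counts in 5 of 6 groups. Of 2 neuroendocrine markers measured, SYP was at 13.6 to 15 CPM with ACBI and 1.87 to 3.7 CPM in the other groups, and CHGA was at 0.17 CPM or less in all. Of 3 mesenchymal markers, FN1 was at 2511 to 2722 CPM with ACBI and 501 to 979.2 CPM elsewhere, VIM was lower with ACBI (5 to 6.02 CPM against 9.18 to 29.5 CPM), and COL1A1 overlapped (11.7 to 13.3 CPM against 11.4 to 18.4 CPM). The part of these markers in the results on the 9 genes was not tested.

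In DMSO, PRDX1 and TALDO1 had the highest levels of the 9 per length and the glutathione ligase subunits the lowest. Per kilobase of merged exon (GENCODE 29), PRDX1 was at 237 CPM, TALDO1 at 157, TXN at 98 and PGD at 89.7. TXNRD1 was at 75.6, SRXN1 at 60.5 and NQO1 at 22.9 CPM per kilobase. GCLM and GCLC, the modifier and catalytic subunits of glutamate-cysteine ligase, were at 7.94 and 4.3 CPM per kilobase. The annotation used for counting is not given in the sources used here, so these lengths are approximate.

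**Figure D1:**
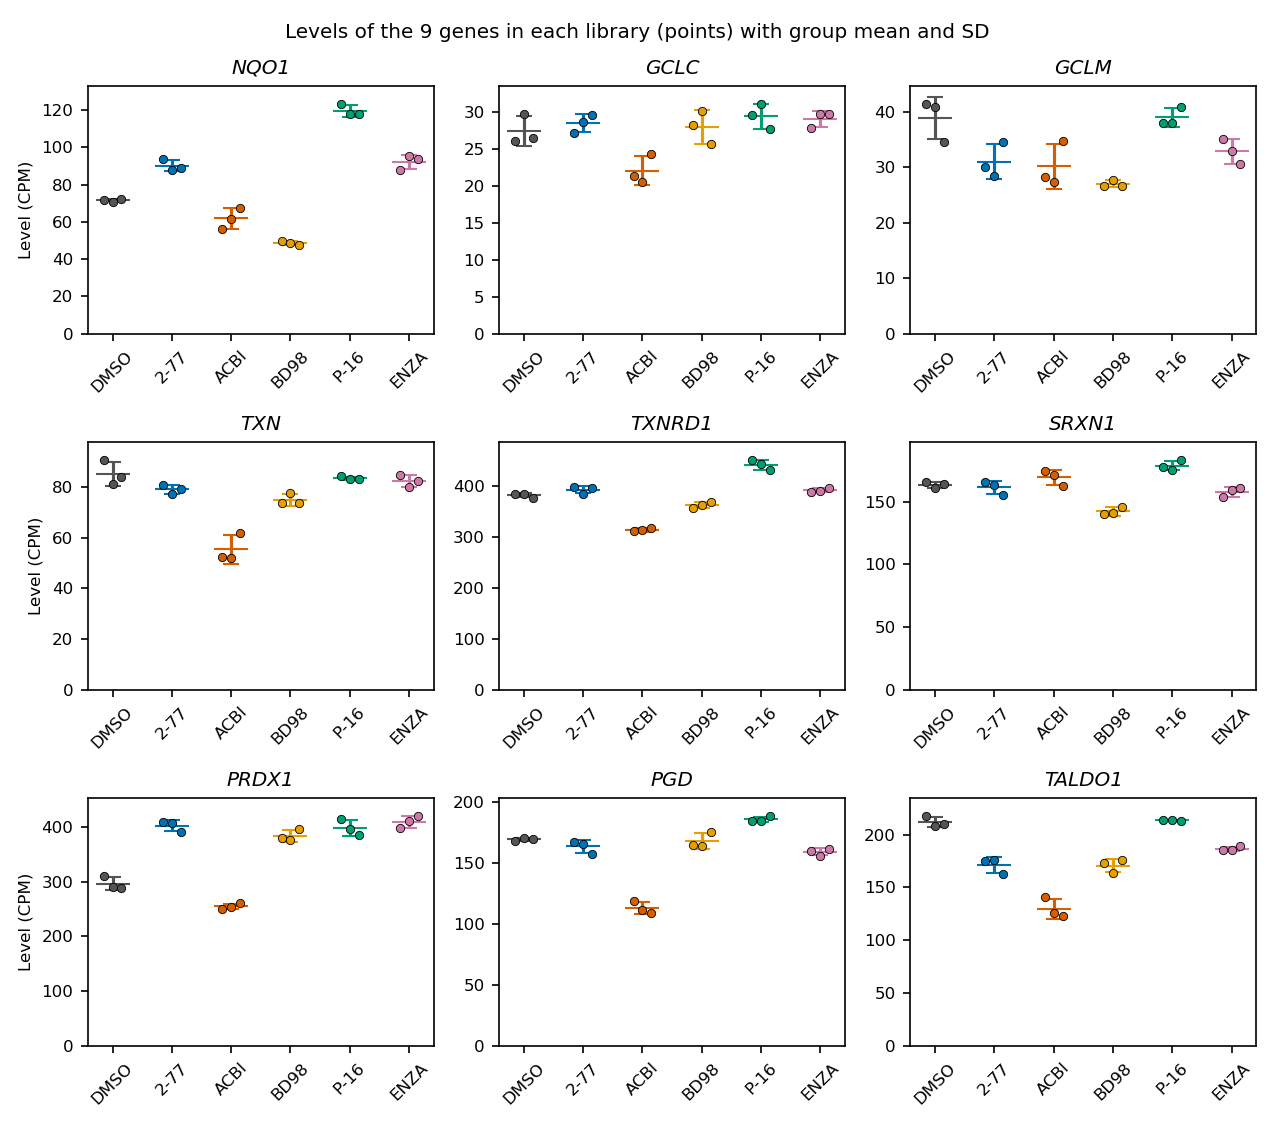
Level in CPM (vertical axes, from 0) of each of the 9 genes in each of the 18 libraries (points) by condition, with the group mean (wide bar) and SD (whiskers, n = 3). NQO1 has the highest ratio of highest to lowest group, 2.46, from 48.7 CPM with BD98 to 119.5 CPM with P-16, and ACBI is the lowest group for GCLC, TXN, TXNRD1, PRDX1, PGD and TALDO1.

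NQO1 differed most between conditions. It encodes NAD(P)H quinone dehydrogenase 1, which reduces quinones to hydroquinones, and lies on the minus strand of chromosome 16 from 69709401 to 69726560 (hg38, as for all gene positions here). Its level was 71.6, 70.9 and 72.1 CPM in the 3 DMSO libraries, 123, 117.6 and 117.9 CPM with P-16 and 49.8, 48.7 and 47.6 CPM with BD98. With ENZA it was 87.6, 95.2 and 93.5 CPM, with 2-77 93.5, 88 and 88.9 CPM, and with ACBI 56.2, 61.5 and 67.7 CPM. All libraries of P-16, ENZA and 2-77 were above all 3 DMSO libraries, and all libraries of ACBI and BD98 were below them. NQO1 rose 1.67-fold with P-16 (log2 fold change 0.74 ± 0.052 SE, n = 3 per group, edgeR adjusted p = 2.29e-12), 1.29-fold with ENZA (0.37 ± 0.052, adjusted p = 1.38e-06) and 1.26-fold with 2-77 (0.33 ± 0.052, adjusted p = 4.96e-06). It fell 1.47-fold with BD98 (-0.56 ± 0.054, adjusted p = 9.75e-10) and 1.16-fold with ACBI (-0.21 ± 0.053, adjusted p = 0.000757). The order was P-16, ENZA, 2-77, DMSO, ACBI and BD98, and of the neighbours in it, ENZA and 2-77 were not told apart (adjusted p = 0.817). The P-16 mean was 2.46 times the BD98 mean, against a ratio of highest to lowest group of 1.26 to 1.65 for the other 8 genes.

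PRDX1 rose with 4 of the 5 compounds. It encodes peroxiredoxin 1, an abundant cytosolic thiol peroxidase, and lies on the minus strand of chromosome 1 from 45511035 to 45522890. Its level was 310.2, 289.7 and 289.2 CPM in DMSO, 408, 408 and 391 CPM with 2-77, 398, 411 and 419.6 CPM with ENZA, 414.5, 396 and 385 CPM with P-16 and 380.4, 376 and 397 CPM with BD98. These 12 libraries were above all DMSO libraries, and the 3 ACBI libraries, at 249.8, 255 and 260.3 CPM, were below them. The log2 fold changes were 0.47 ± 0.038 with ENZA (adjusted p = 3.41e-11), 0.44 ± 0.038 with 2-77 (9.61e-11), 0.43 ± 0.038 with P-16 (5.27e-10) and 0.38 ± 0.038 with BD98 (2.32e-09). With ACBI, PRDX1 fell (-0.22 ± 0.038, edgeR adjusted p = 1.03e-05). In the order ENZA, 2-77, P-16 and BD98, neighbours did not pass the test against each other (adjusted p = 0.287 to 0.829), so their order is not resolved. At its ends, all BD98 libraries were below all ENZA libraries, and the difference missed the threshold (-0.09 ± 0.038, edgeR adjusted p = 0.0543).

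SRXN1 encodes sulfiredoxin 1, which repairs overoxidised peroxiredoxins, and lies on the minus strand of chromosome 20 from 646624 to 653200. Its groups spanned only a 1.26-fold range. Levels ran from 139.9 to 146 CPM with BD98, 153.5 to 160.4 with ENZA, 155.5 to 165.4 with 2-77, 160.4 to 165.5 in DMSO, 162.4 to 174 with ACBI and 175.5 to 182.8 with P-16. All BD98 libraries were below and all P-16 libraries above the DMSO libraries, and the other 3 groups overlapped DMSO. SRXN1 fell with BD98 (-0.20 ± 0.037, adjusted p = 5.72e-05) and rose with P-16 (0.13 ± 0.037, adjusted p = 0.0108). The P-16 call was lost without DMSO replicate 2 (adjusted p = 0.0528), without P-16 replicate 3 (0.0596) and with library totals (0.0701), with a range of 0.00256 to 0.0701 over 14 alternatives. With ACBI the difference was 0.05 ± 0.037 (edgeR adjusted p = 0.21), and without ACBI replicate 3 it was 0.09 (adjusted p = 0.0304, range 0.0304 to 0.825 over 14 alternatives). Among neighbours in the order of levels, only ENZA and BD98 differed (adjusted p = 0.00169).

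TXN, thioredoxin, is the small disulfide-reducing carrier that regenerates peroxiredoxins. It lies on the minus strand of chromosome 9 from 110243810 to 110256507. TXN was at 90.5, 81.2 and 83.9 CPM in DMSO and at 52.3, 51.9 and 61.9 CPM with ACBI, which put every ACBI library below every library of all other groups. TXN fell 1.54-fold with ACBI (-0.62 ± 0.055, edgeR adjusted p = 2.86e-11). It also fell with BD98, to 73.4 to 77.7 CPM (-0.19 ± 0.054, adjusted p = 0.00507), a call lost without DMSO replicate 1 (0.0532) and with library totals (0.0515), over a range of 0.00249 to 0.0532 in 14 alternatives. With 2-77, P-16 and ENZA the level was 77.3 to 84.8 CPM and the adjusted p 0.118 or more. All 2-77 libraries were below all DMSO libraries, while P-16 and ENZA overlapped DMSO. ACBI was told apart from its neighbour BD98 (adjusted p = 4.36e-08), while no other neighbours in the order were (0.234 to 0.847).

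TXNRD1, thioredoxin reductase 1, is the selenoprotein that reduces thioredoxin with NADPH. It lies on the plus strand of chromosome 12 from 104215779 to 104350307. Levels were 384.1, 384.5 and 376.1 CPM in DMSO, 449.6, 442 and 431 CPM with P-16 and 310.9, 312.5 and 318 CPM with ACBI. The P-16 libraries were above and the ACBI libraries below the libraries of every other group. TXNRD1 rose 1.16-fold with P-16 (0.21 ± 0.032, edgeR adjusted p = 1.27e-05) and fell 1.22-fold with ACBI (-0.28 ± 0.032, adjusted p = 6.28e-09). With BD98 it was 356.3 to 368 CPM, below all DMSO libraries, and missed the threshold (-0.08 ± 0.032, adjusted p = 0.0539). DESeq2 called that difference (0.00435), as did 4 more of 14 alternatives, whose adjusted p ran from 0.00435 to 0.83 and whose lowest change was -0.09. With 2-77 and ENZA TXNRD1 was at 384.4 to 398 CPM (adjusted p = 0.345 and 0.437). All ENZA libraries were above all DMSO libraries, while 2-77 overlapped DMSO.

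Of the glutathione ligase subunits, GCLM fell in 4 contrasts with DMSO and GCLC in 1. GCLM, the modifier subunit, lies on the minus strand of chromosome 1 from 93885200 to 93909598 as deposited, and GCLC, the catalytic subunit, on the minus strand of chromosome 6 from 53497341 to 53545101. GCLM was at 41.4, 40.9 and 34.5 CPM in DMSO, 26.7, 27.8 and 26.7 CPM with BD98, 30.2, 28.5 and 34.5 CPM with 2-77, 28.3, 27.5 and 34.8 CPM with ACBI, 35.2, 32.9 and 30.6 CPM with ENZA and 38, 38.1 and 40.9 CPM with P-16. DMSO replicate 3 was the low one of its group, and of the 4 groups in which GCLM fell, ACBI replicate 3 and ENZA replicate 1 reached above it. GCLM fell with BD98 (-0.52 ± 0.086, edgeR adjusted p = 1.98e-05), ACBI (-0.36 ± 0.085, 0.000524) and 2-77 (-0.32 ± 0.084, 0.00344). Its fall with ENZA (-0.24 ± 0.084, adjusted p = 0.028) was lost without DMSO replicate 1 (0.124), DMSO replicate 2 (0.115), ENZA replicate 2 (0.073) or ENZA replicate 3 (0.125), over a range of 0.00351 to 0.125 in 14 alternatives. With P-16 the difference was 0.01 (95% interval -0.17 to 0.18). GCLC changed with ACBI alone among the 5 contrasts with DMSO, from 26, 29.7 and 26.5 CPM to 21.3, 20.6 and 24.3 CPM (-0.31 ± 0.076, adjusted p = 0.00052). In the other groups GCLC was at 25.6 to 31 CPM, overlapping DMSO, with an adjusted p of 0.348 or more.

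The pentose phosphate enzymes were lowest with ACBI. PGD, 6-phosphogluconate dehydrogenase, makes NADPH in the oxidative branch and lies on the plus strand of chromosome 1 from 10399064 to 10420511. PGD was at 167.4, 170.1 and 169.8 CPM in DMSO, 118.3, 111.3 and 108.5 CPM with ACBI and 184.4, 184.6 and 188 CPM with P-16. ACBI libraries were below and P-16 libraries above those of every other group. PGD fell 1.5-fold with ACBI (-0.59 ± 0.039, edgeR adjusted p = 3.76e-14) and rose with P-16 (0.13 ± 0.038, adjusted p = 0.00968), the latter lost with library totals (0.0577, range 0.00132 to 0.0577 over 14 alternatives). With BD98 PGD was at 163.6 to 175 CPM, overlapping DMSO. All libraries of 2-77 (157.3 to 166.8 CPM) and ENZA (155.8 to 161.4 CPM) were below all DMSO libraries. The difference of PGD with 2-77 did not pass (-0.05 ± 0.038, adjusted p = 0.304). With ENZA it was -0.09 ± 0.038 (adjusted p = 0.0687), which passed under 3 of 14 alternatives (range 0.0277 to 0.234).

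TALDO1, transaldolase, links the non-oxidative branch to glycolysis and lies on the plus strand of chromosome 11 from 747464 to 765012. TALDO1 was at 217.2, 208.2 and 209.5 CPM in DMSO and 213.7, 213.3 and 213 CPM with P-16, and at 140.6, 125.7 and 122.7 CPM with ACBI. With BD98 it was at 172.8, 163.2 and 175.4 CPM, with 2-77 at 175, 176.1 and 162.7 CPM and with ENZA at 185.4, 185.4 and 188.7 CPM. All libraries of ACBI, BD98, 2-77 and ENZA were below all DMSO libraries. TALDO1 fell 1.63-fold with ACBI (-0.71 ± 0.043, edgeR adjusted p = 4.66e-15), and fell with BD98 (-0.31 ± 0.042, 5.17e-07), 2-77 (-0.30 ± 0.042, 8.49e-07) and ENZA (-0.18 ± 0.042, 0.000962). With P-16 the difference was 0.01 (95% interval -0.07 to 0.10).

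The 5 contrasts with DMSO share the same 3 control libraries, and their counts are best read beside the share of all genes called. With ACBI, 8 of the 9 genes fell, 0 rose and SRXN1 did not pass, where 72% of all genes were called, 36.6% lower and 35.4% higher. No gene rose at an unadjusted p under 0.05 or by DESeq2 either. The ACBI median was -0.31, against -0.01 over all genes tested. Without ACBI replicate 3 the same counts were 8 down and 1 up. With BD98, 5 fell, 1 rose and 3 did not pass (49% of all genes called, 24.5% lower and 24.5% higher), with a median of -0.19.

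With P-16, 5 of the 9 rose (NQO1, PRDX1, TXNRD1, PGD and SRXN1), 0 fell and 4 did not pass, where 24% of all genes were called, 12.4% higher and 11.6% lower. None fell at an unadjusted p under 0.05 in edgeR or by DESeq2. The P-16 median was 0.13, against 0.00 over all genes, and with library totals 3 of the 9 rose. With 2-77, 2 rose (NQO1 and PRDX1), 2 fell (GCLM and TALDO1) and 5 did not pass, where 40.7% of all genes were called, 20.5% higher and 20.2% lower. With ENZA the counts were likewise 2 up, 2 down and 5 not passing, where 36.3% of all genes were called, 18.2% higher and 18.1% lower. The medians were -0.02 with 2-77 and -0.05 with ENZA. The libraries of compound and DMSO did not overlap for 6 genes with 2-77, 7 with ACBI, 7 with BD98, 5 with P-16 and 5 with ENZA, where this held for 50.5%, 72.3%, 56.1%, 40.8% and 49.4% of all genes.

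**Figure D2:**
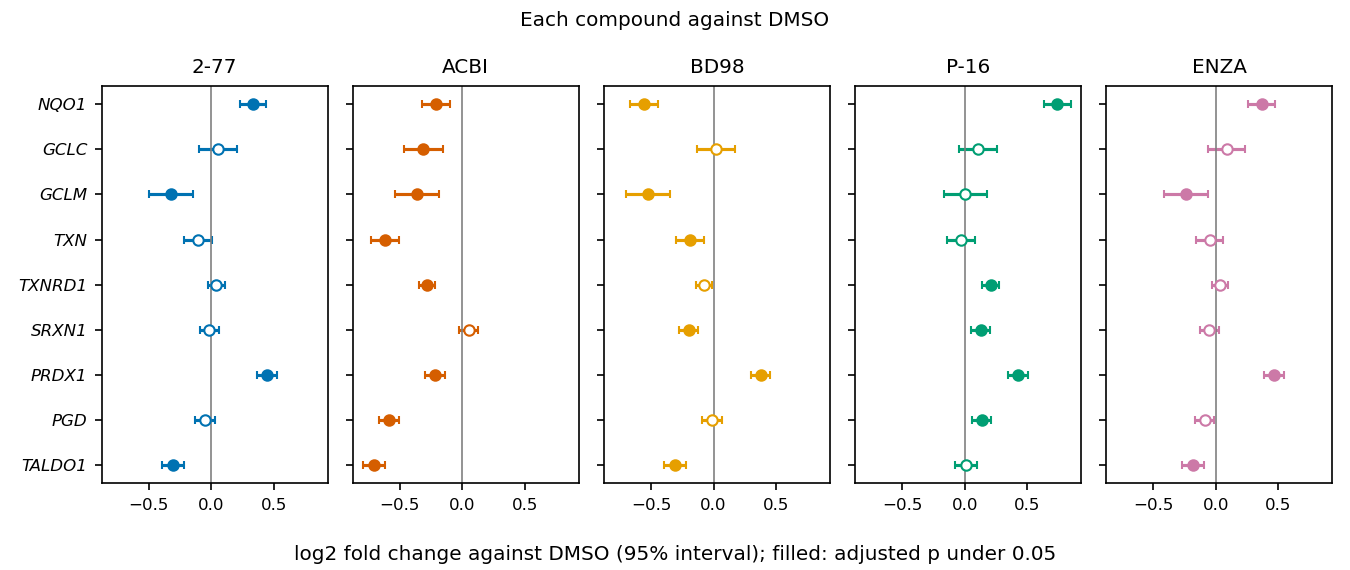
Log2 fold change of each of the 9 genes against DMSO (horizontal axes) for the 5 compounds, with 95% intervals from the edgeR fit (n = 3 libraries per group), filled where the adjusted p was under 0.05. PRDX1 lies to the right of 0 for 4 compounds and NQO1 for 3, while 8 genes lie to the left for ACBI.

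P-16 and ENZA were the compounds given at the same dose, 10 µM, and 6 of the 9 genes were higher with P-16, where 21.4% of all genes were called and 11% were higher. NQO1 was 1.3-fold higher with P-16 (0.38 ± 0.05, edgeR adjusted p = 1.68e-06), PGD 1.17-fold (0.22 ± 0.038, 6.07e-05) and TALDO1 1.14-fold (0.19 ± 0.042, 0.00109). TXNRD1 (0.17 ± 0.032, 0.000194), SRXN1 (0.18 ± 0.037, 0.000617) and GCLM (0.24 ± 0.084, 0.0379) were the others. None was lower with P-16, also at an unadjusted p under 0.05 or by DESeq2. PRDX1, GCLC and TXN did not pass, with 95% intervals of -0.12 to 0.04, -0.13 to 0.16 and -0.09 to 0.13.

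The other contrasts between compounds are also contrasts of doses. Between 2-77 and ENZA, 0 of the 9 genes passed in edgeR, where 5.54% of all genes did, and DESeq2 also called 0. At an unadjusted p under 0.05 there was 1, TALDO1, which was lower with 2-77 (-0.12, 95% interval -0.21 to -0.04, adjusted p = 0.091). For the other 8 genes the intervals of the difference lay within -0.26 to 0.12. Over all 10 contrasts between compounds 59 of 90 member tests passed, where 45.9% of all gene tests did, each adjusted over all genes within its contrast and not over the 10. Against ACBI, 7 genes were higher with 2-77 (all but GCLM and SRXN1, where 70.2% of all genes were called and 36.8% were higher). In edgeR 0 were lower with 2-77, while DESeq2 called 7 of the 9 genes higher and 1 lower. Same-number libraries of these 2 groups deviated together. A fit of these 2 groups alone, with that pairing as a block, was added after seeing the data. In it SRXN1 was also called, lower with 2-77 (-0.08, edgeR adjusted p = 0.049). With a replicate block in the fit of all groups, SRXN1 was not called (-0.07, adjusted p = 0.121). Between ACBI and P-16, 8 were lower with ACBI (71.5% called, 36.5% lower), and SRXN1 did not pass (adjusted p = 0.0627). Between ACBI and ENZA, 7 were lower with ACBI and SRXN1 was higher (70.1% called, 36.7% lower and 33.3% higher). Between ACBI and BD98, 6 were lower with ACBI and 2, NQO1 and SRXN1, were higher (69.6% called, 36.2% lower and 33.4% higher).

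BD98 stood below P-16 for 7 genes (43.6% called, 21.4% lower), with NQO1 at -1.30 ± 0.053 (edgeR adjusted p = 2.69e-18) as the widest difference among all 90. GCLC and PRDX1 did not pass there, with 95% intervals of -0.23 to 0.07 and -0.13 to 0.03. BD98 was below ENZA for 6 genes (42.5% called, 20.8% lower) and 2-77 was below P-16 for 6 (22.4% called, 11.8% lower). With 2-77, 3 genes (NQO1, TXNRD1 and SRXN1) were higher than with BD98 (42% called, 20.7% higher).

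**Figure D3:**
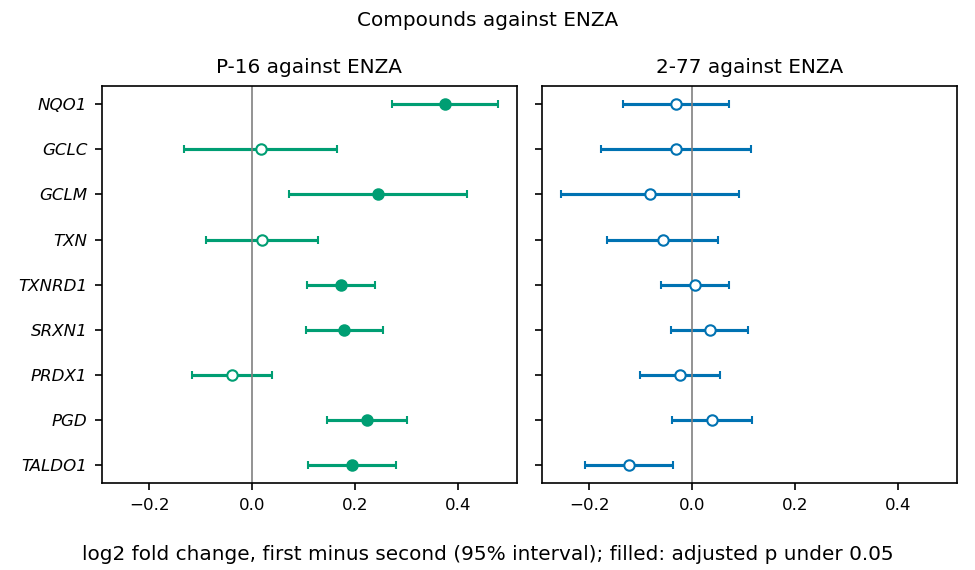
Log2 fold change (horizontal axis) of each gene for P-16 against ENZA, both at 10 µM, and for 2-77 (1 µM) against ENZA, with 95% intervals, filled where the adjusted p was under 0.05. NQO1 has the largest value on the left, 0.38, and on the right TALDO1 alone has an interval that does not reach 0 and did not pass after adjustment.

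Transcripts of the NRF2 control machinery did not move as one. The list had 11 regulators, all tested, and with ACBI 7 rose and 4 fell. Counts on this and the later lists are best read beside the shares of all genes called. These shares were 35.4% higher and 36.6% lower with ACBI, 24.5% and 24.5% with BD98, and 12.4% and 11.6% with P-16. They were 20.5% and 20.2% with 2-77, and 18.2% and 18.1% with ENZA. NFE2L2 itself rose 1.63-fold with ACBI, from 63.4 to 103.1 CPM (0.70 ± 0.05, edgeR adjusted p = 2.03e-13), and KEAP1 from 118.7 to 152.5 CPM (0.36 ± 0.045, 2.82e-08). Of the small MAF genes, MAFK (-1.01 ± 0.05, 4.82e-17) and MAFG (-0.66 ± 0.053, 3.1e-12) fell with ACBI, while MAFF rose (0.62 ± 0.17, 0.00175). With BD98, 1 rose and 5 fell, and SQSTM1, whose protein p62 pulls KEAP1 into autophagy and is itself an NRF2 target, fell from 978.8 to 593.8 CPM (-0.72 ± 0.034, adjusted p = 8.14e-17). NFE2L2 with BD98 was at -0.08 ± 0.051 (adjusted p = 0.204). With P-16, 4 rose and 1 fell, among the rises SQSTM1 (0.27 ± 0.034, adjusted p = 4.59e-07), MAFG (0.17 ± 0.051, 0.0132) and MAFF (0.73, 0.0018). MAFF, at 3.06 CPM in DMSO, also rose with 2-77 (0.86 ± 0.17, adjusted p = 0.000112). With BD98 MAFF did not pass (0.25 ± 0.18, adjusted p = 0.241). NFE2L2 with P-16 was at 0.04 ± 0.051 (adjusted p = 0.63). NFE2L2 fell with 2-77 (-0.18 ± 0.051, adjusted p = 0.00472) and ENZA (-0.20 ± 0.051, 0.00323), where 3 rose and 2 fell, and 1 rose and 2 fell, of the 11.

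Other NRF2 targets were counted from a list of 26 genes, of which 22 were tested and none is among the 9. TKT, SLC7A11 and some others stand in more than 1 list. With ACBI 14 fell and 5 rose (median -0.33), with BD98 14 fell and 4 rose (median -0.23), and with P-16 2 fell and 9 rose (median 0.14). Of all genes, 72%, 49% and 24% were called in these contrasts, in that order. With 2-77 7 fell and 4 rose (40.7% of all genes called), and with ENZA 8 fell and 4 rose (36.3% called). HMOX1, heme oxygenase 1, was at 15.3 CPM in DMSO and rose with P-16 to 20.6 CPM (0.44 ± 0.092, edgeR adjusted p = 0.000614), as it did with ACBI to 27.1 CPM (0.83 ± 0.089, 1.54e-09). HMOX1 fell with BD98 (-0.50 ± 0.098, 9.38e-05), 2-77 (-0.40 ± 0.096, 0.00126) and ENZA (-0.32 ± 0.096, 0.00987). SLC7A11, the cystine importer that feeds glutathione synthesis and is also a target of ATF4, fell from 260.4 to 45.2 CPM with BD98 (-2.53 ± 0.11, adjusted p = 3.33e-10). It fell with ACBI (-1.31 ± 0.11), 2-77 (-1.12 ± 0.1) and ENZA (-0.86 ± 0.1) as well, and was at -0.27 ± 0.1 with P-16 (adjusted p = 0.0738).

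In the glutathione list, 20 genes beyond GCLC and GCLM were tested. With 2-77 12 fell and 4 rose, with ACBI 11 fell and 6 rose, with BD98 10 fell and 1 rose, with ENZA 11 fell and 3 rose, and with P-16 6 fell and 3 rose. In the same order, 40.7%, 72%, 49%, 36.3% and 24% of all genes were called. CHAC1, which degrades glutathione, was at 74.5 CPM in DMSO, 28.5 with 2-77, 28.7 with ENZA, 10.1 with ACBI and 5.13 with BD98, and fell in all 5 contrasts, least with P-16 (-0.20 ± 0.06, edgeR adjusted p = 0.0155). GGT1, which splits extracellular glutathione, fell with ACBI (-3.25, adjusted p = 1.03e-24), where MGST3 (1.04, 2.42e-16) and the glutaredoxin gene GLRX (0.96, 1.14e-07) rose. GSTP1, which is known to be silenced by promoter methylation in prostate cancer, had at most 2 counts in any library and was not tested.

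In the thioredoxin and peroxiredoxin list, 15 genes beyond TXN, TXNRD1, SRXN1 and PRDX1 were tested. Of these 4 rose and 2 fell with 2-77, 8 and 3 with ACBI, 6 and 3 with BD98, 5 and 1 with P-16, and 6 and 1 with ENZA. The shares of all genes called were 40.7%, 72%, 49%, 24% and 36.3%, in that order. TXNIP, whose protein binds and inhibits thioredoxin, was at 121 CPM in DMSO and rose 3.7-fold with BD98, 3.3-fold with 2-77, 3.22-fold with ENZA and 2.94-fold with ACBI (edgeR adjusted p = 4.24e-25 or less), but 1.09-fold with P-16 (0.12 ± 0.036, adjusted p = 0.0139). PRDX4, the peroxiredoxin of the endoplasmic reticulum, fell in all 5 contrasts, from -0.28 with P-16 (adjusted p = 1.86e-05) to -0.76 with ACBI (3.16e-15). NXN, nucleoredoxin, rose in all 5, from 0.30 ± 0.07 with ACBI (adjusted p = 0.000387) to 1.17 ± 0.067 with BD98 (6.92e-15).

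In the pentose phosphate list, 9 genes beyond PGD and TALDO1 were tested. With ACBI 3 fell and 2 rose (72% of all genes called), and with P-16 1 rose (24% called). TKT, transketolase, was at 454.7 CPM in DMSO and 187.2 CPM with ACBI (-1.28 ± 0.037, edgeR adjusted p = 4.6e-23), and it fell with BD98 (-0.43 ± 0.036, 3.94e-11), ENZA (-0.15 ± 0.036, 0.000993) and 2-77 (-0.09 ± 0.036, 0.0464). TKT rose with P-16 (0.12 ± 0.036, adjusted p = 0.0145). With 2-77, BD98 and ENZA, 3 of the 9 fell in each, where 20.2%, 24.5% and 18.1% of all genes were called lower. With these compounds 0 of the whole list of 11 rose in edgeR or by DESeq2, and at an unadjusted p under 0.05 there was 1 rise, with BD98.

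**Figure D4:**
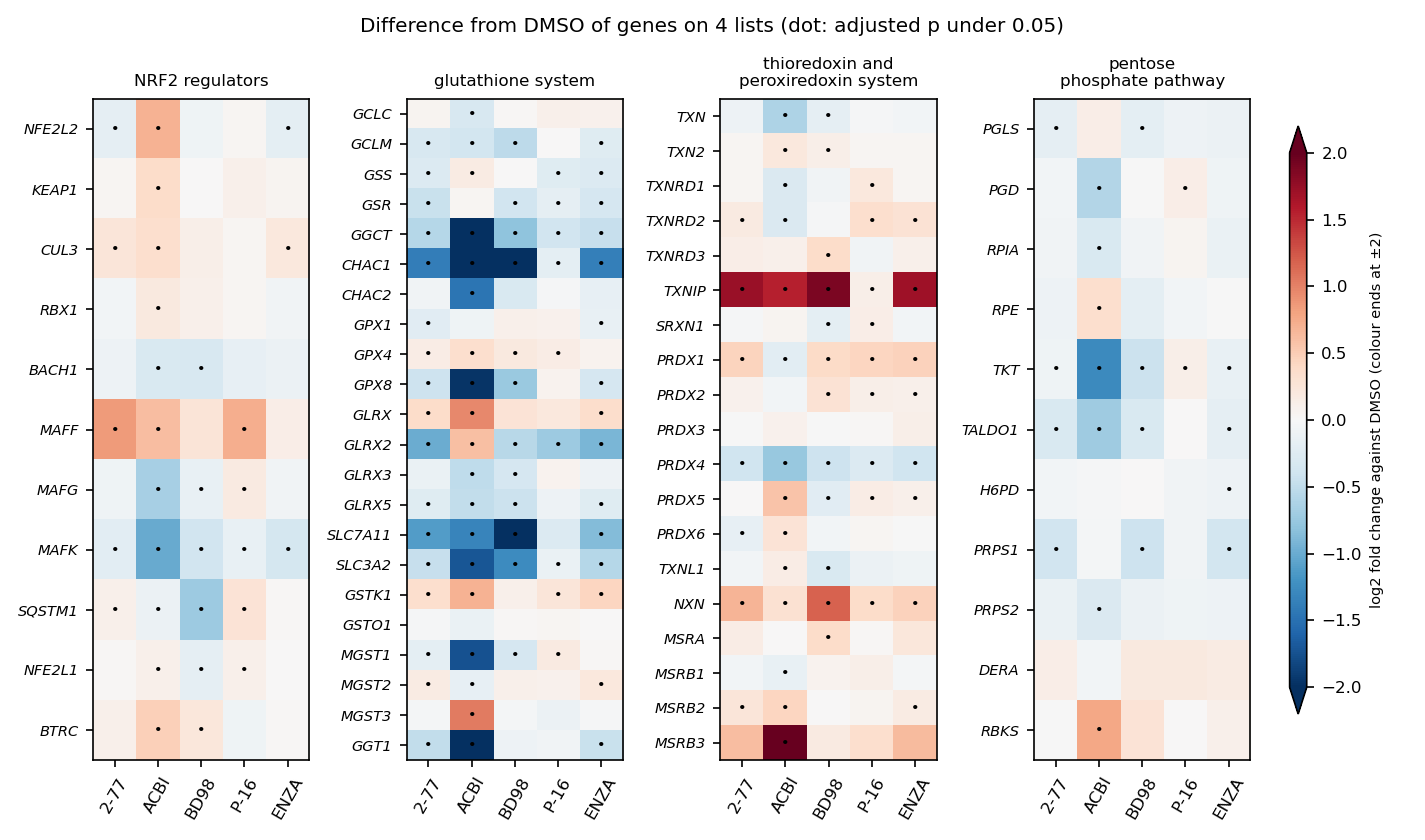
Log2 fold change against DMSO (colour, ending at ±2) of the tested genes of 4 lists (rows) for the 5 compounds (columns), with a dot where the adjusted p was under 0.05. TXNIP is dark for 4 compounds and pale for P-16, at 0.12, and CHAC1 and SLC7A11 are lowest with BD98, at -3.87 and -2.53.

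Likeness of pattern was measured as the root mean square difference of log2 CPM, centred for each gene, over the 18 libraries, against 11454 genes with a mean of at least 4 CPM. The genes closest to SRXN1 were NFE2L1, which encodes a factor related to NRF2 (0.0381), and XPO6 (0.0539). HSPA8, a constitutive chaperone of the HSP70 family, was closest to TXNRD1 (0.0424), followed by NXPE3 (0.0607). HSP90AA1, the inducible cytosolic HSP90, was closest to PRDX1 (0.0662), followed by EGFL7 (0.0805). For PGD they were FARSA (0.0331) and STARD10 (0.0488), for TALDO1 EIF5A (0.0422) and CCDC51 (0.0553), and for TXN SET (0.052) and MRPL3 (0.0536). For GCLC they were THEM4 (0.0738) and GRSF1 (0.0765), for GCLM L3HYPDH (0.0894) and QKI (0.0915), and for NQO1 TRAF3IP2 (0.146) and ITPRID2 (0.152). Genes that vary little have small differences by construction, so these values rank genes within 1 member only.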

How the data were processed

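RNA from 18 LNCaP libraries was sequenced after a stranded mRNA preparation, per the labels' protocols. The submitters' processing notes name STAR, Partek, DESeq2 and hg38 without versions or roles, and the counting program and annotation are not given in the sources used here. The authors deposited estimated counts per gene with decimals, not scaled to depth, and the end of a gene was taken as the base before the listed stop. The 2-77 and P-16 libraries carry the column names SCO277 and PB_16.

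Counts were rounded and fitted with edgeR 4.0.16 in R 4.3.3: filterByExpr (15422 of 20145 genes kept), TMM scaling and a robust quasi-likelihood fit of all 18 libraries with 12 residual degrees of freedom. P-values are two-sided and Benjamini-Hochberg adjusted over all genes in a contrast, with a threshold of 0.05. SE is the absolute log2 fold change over the root of F. The fit was also run on simulated data in which few genes changed, unlike most contrasts here. The outcome of that run is not reported here, and no result rests on it. Residuals of 12 of 45 same-number library pairs correlated above 0.1, over 8469 genes of at least 20 CPM, and 2-77 with ACBI was the 1 pair of groups where all 3 did, so libraries were treated as unpaired. The members and lists were chosen with earlier results of these data known. List genes were named by a rule: the 2 largest rises and falls per list and contrast, plus a fixed panel, of which not all are reported here. One list gene and 1 marker gene were left out of lists and counts and are not reported here. Alternatives were DESeq2 1.42.0, other scalings and filters, fits without ribosomal RNA genes or other groups, a replicate block and the removal of each library. Figures used matplotlib 3.10.9.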

Additional observations from a re-analysis of the deposited data

How the results depend on the processing

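Of 45 member values (9 genes in 5 contrasts with DMSO), 33 kept their direction and their side of the threshold under every alternative run. There were 7 that crossed the threshold at least once (10 losses and 9 gains of a call among 630 values), and 5 others, none of them called in any fit, changed sign in 9 values. The 7 are SRXN1 with ACBI and with P-16, TXN and TXNRD1 with BD98, PGD with P-16 and with ENZA, and GCLM with ENZA. With library totals in place of TMM, 3 of the 9 genes rose with P-16 in place of 5, where SRXN1 and PGD were lost, and the cause was not tested. That scaling also turned the sign of PGD with BD98 (0.052) and GCLM with P-16 (-0.0061). Over the removal of single libraries, GCLC with BD98 ran from -0.038 to 0.085, GCLM with P-16 from -0.075 to 0.050, TXN with P-16 from -0.061 to 0.014 and SRXN1 with 2-77 from -0.035 to 0.012. Leaving out 1 library at a time gave 4 calls with 2-77, 8 to 9 with ACBI, 5 to 7 with BD98, 4 to 5 with P-16, 3 to 4 with ENZA and 56 to 64 over the 10 contrasts between compounds. A group reduced to 2 libraries rests on the spread shared with the other groups.

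With a replicate block in the fit of all groups, the calls against DMSO were 4, 8, 6, 5 and 4 for 2-77, ACBI, BD98, P-16 and ENZA, as without it, and 58 in place of 59 between compounds, where GCLM between P-16 and ENZA was lost (adjusted p = 0.0527). For 2-77 against ACBI, where same-number libraries deviated together, a fit of these groups alone with a replicate block, added after seeing the data, called 7 genes higher and SRXN1 lower (-0.08, edgeR adjusted p = 0.049), against 7 higher without it. With 3 libraries per group, small changes lie near the spread between libraries, and reads carry no molecular identifiers.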

Other observations

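Of 3 genes that remove superoxide and hydrogen peroxide, 2 rose with ACBI, P-16 and ENZA and 1 with 2-77. In that order, 35.4%, 12.4%, 18.2% and 20.5% of all genes were called higher. CAT, catalase, rose with ACBI (0.64, edgeR adjusted p = 5.37e-16), ENZA (0.24, 3.14e-06) and P-16 (0.12, 0.0113), and the cytosolic superoxide dismutase gene SOD1 rose with ENZA (0.22, 0.000473), 2-77 (0.19, 0.00129) and P-16 (0.16, 0.0134). With BD98, 0 of these 3 genes (SOD2 being the third) passed, where 49% of all genes did. None passed at an unadjusted p under 0.05 or by DESeq2 either. SOD2, the mitochondrial form, rose with ACBI (0.15, edgeR adjusted p = 0.0109), and was at -0.12 with 2-77 (0.0529), a fall by DESeq2.

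Of 7 tested genes for NADPH sources, PGD among them, 3 fell with ACBI and 1 rose, 4 fell with BD98, 3 fell with 2-77, 4 fell and 1 rose with ENZA, and 1 fell and 2 rose with P-16. The shares of all genes called were 72%, 49%, 40.7%, 36.3% and 24%, in that order. IDH1, cytosolic isocitrate dehydrogenase, fell from 353.6 to 163.9 CPM with BD98 (-1.11 ± 0.035, edgeR adjusted p = 5.03e-21) and rose to 429.6 CPM with ACBI (0.28 ± 0.034, 2.01e-08). IDH2, the mitochondrial form, fell with ACBI (-0.97, adjusted p = 1.39e-20). ME1, malic enzyme 1, fell with BD98 (-0.79 ± 0.049, 6.99e-14) and rose with P-16 (0.27 ± 0.047, 8.44e-05). NNT, the mitochondrial transhydrogenase, had at most 18 counts in any library.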
